A study of Mus musculus with 6 samples.

Results

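Granulosa cells labelled as knockout for the protein kinases ERK1 and ERK2 were set against wild type granulosa cells 4 h after an ovulatory dose of human chorionic gonadotropin (hCG), gene by gene. In the knockout mice ERK1 was knocked out and ERK2 was floxed (ERK2 fl/fl) and cut by Cyp19CRE, a Cre recombinase under the Cyp19 promoter that is active in granulosa cells. The other genotype was labelled wild type, with no word on whether it carried Cre or a floxed allele. Every mouse, at 23 days of age, was primed for 48 h with 5 IU of equine chorionic gonadotropin (eCG), under which follicles grow. The ovulatory dose was 5 IU of hCG, a substitute for the luteinizing hormone surge. The comparison used 2 of the 6 arrays of the series, the knockout array and the wild type array at 4 h. The other 4 arrays held the knockout and the wild type at 0 h (no hCG) and at 2.5 h, and they served to say when a gene had diverged. Each genotype and time had 1 array, so differences carry no replicate error and no p-value, and whether animals were pooled is not given in the sources used here.

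Luteinizing hormone acts on granulosa cells of the preovulatory follicle through cAMP. These cells then release EGF-like ligands, and the EGF receptor they activate leads to ERK1 and ERK2, the last kinases of a MAP kinase cascade. In the following hours granulosa cells switch on genes of cumulus expansion, follicle rupture and luteinization, and they switch off genes of the growing follicle such as the FSH receptor and estrogen-forming enzymes.

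Values are array intensities on a linear scale, 1 probe set per gene, and differences are log2 of knockout minus wild type. Of 18194 genes with a probe set of their own, 11467 were measured in the 4 h pair, meaning that the brighter of these arrays reached an intensity of 64, a floor just above the array medians of 54 and 55. A gene was called when the arrays differed at least 2-fold. By this rule 572 genes were higher in knockout at 4 h (4.99% of those measured) and 476 were lower (4.15%), or 9.14% in all. The lower genes lay further out. At least 4-fold were 54 of the higher and 176 of the lower genes, and at least 16-fold 2 and 28. These counts take intensities under 64 as they stand, and 78 higher and 124 lower genes had such a value on the dimmer array. Set against the floor, some lower genes counted past 16-fold fall short of it, such as Snap25 at 13.5-fold and Has2 at 7.95-fold. The median of all measured genes was 0.19 (log2) above wild type, and with cyclic loess scaling, which brought that median to 0.02, the split was 360 higher and 549 lower. With the array medians subtracted it was 310 and 605. Averaging a gene's probe sets gave 333 and 424. Counting any size, 7675 of the 11467 measured genes lay above wild type at 4 h and 3729 below. The 3-to-5-prime ratios of the Gapdh and Actb control probe sets, a sign of RNA integrity, were 4.24 and 3.37 on the knockout 4 h array and 4.01 and 2.86 on the wild type 4 h array. The genotype was not checked on its own targets, since the ERK1 and ERK2 genes were not analysed here.

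Near the limits of the rule, 10 called genes had their brighter array at 64 to 71, and 11 genes that differed 2-fold stayed out with a brighter array at 56 to 63. Another 264 called genes differed by only 2-fold to 2.2-fold, and 405 measured genes stayed just short of the threshold at 1.8-fold or more. Where the dimmer array was under 64, which was so for 78 of the higher and 124 of the lower genes, the fold is given as a minimum against the floor ("at least"). Of 447 called genes with several probe sets over the floor, 223 (49.9%) had every one of them at least 2-fold apart in the same direction.

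**Figure D1:**
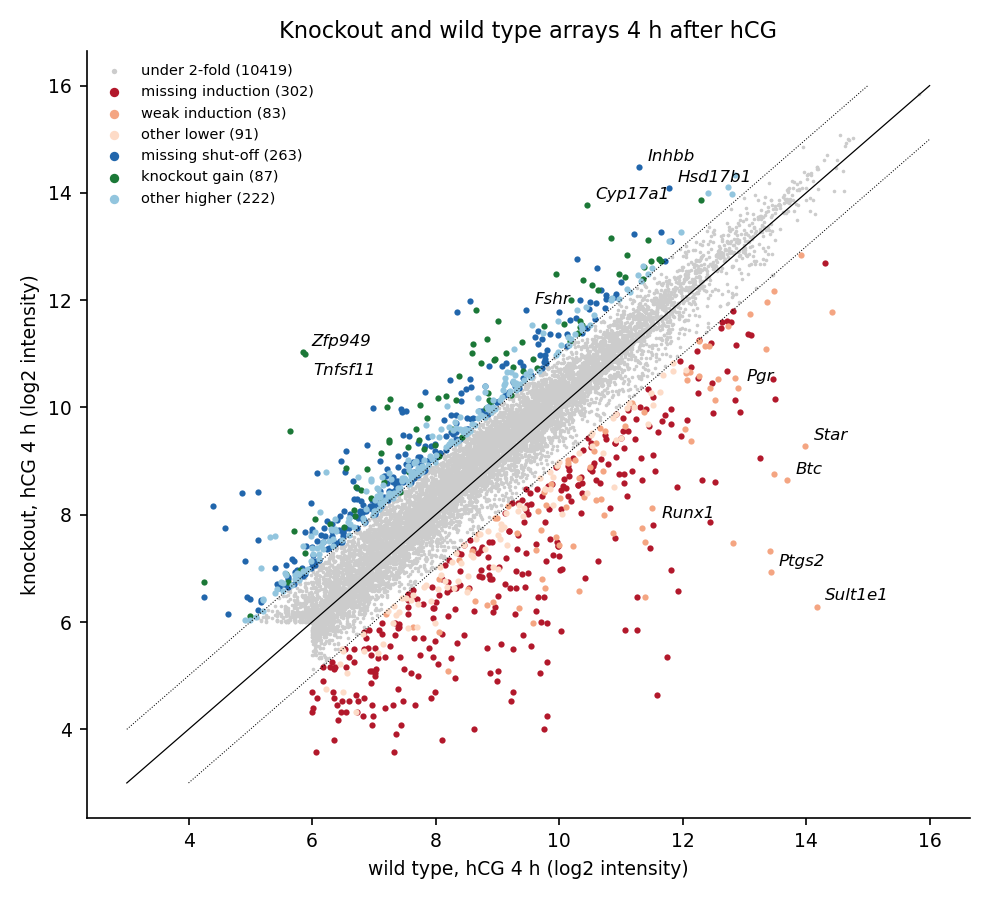
Log2 intensity on the wild type 4 h array (x axis) and the knockout 4 h array (y axis) for the 11467 measured genes, 1 point per gene; the solid line marks equal values and the dotted lines 2-fold differences. The 476 genes under the lower dotted line reach farther from the diagonal than the 572 above the upper one, with Sult1e1 and Ptgs2 far below it and Inhbb and Cyp17a1 above it.

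The own time course of each genotype splits the called genes. In 302 of the 476 lower genes (63.4%) wild type at 4 h stood at least 2-fold above its 0 h array and knockout did not, which is called missing induction here. In 83 more both genotypes reached 2-fold and knockout stayed at least 2-fold short of wild type (weak induction). Of the 572 higher genes, 263 (45.98%) were at least 2-fold down in wild type at 4 h and not in knockout (missing shut-off), 24 were at least 2-fold down in both, and 87 were at least 2-fold up in knockout without being 2-fold down in wild type (knockout gain). Over all measured genes, knockout at 4 h was at least 2-fold above its 0 h array in 3.86% and below it in 4.33%, and wild type in 5.51% and 8.77%. The wild type 4 h array enters both the genotype difference and the wild type response, so these counts describe the genes and do not test anything. Another 18 lower genes were at least 2-fold down in knockout only (knockout loss), and of the genes in none of these groups, 20 lower and 9 higher ones had been apart at 0 h, and 53 and 189 reached the threshold by smaller shifts. Genes apart at 0 h were also found inside the groups, with 12 of the missing induction and 20 of the weak induction genes at least 2-fold lower in knockout at that time. The scaling bears on these classes unequally. With cyclic loess, missing induction held 353 genes and missing shut-off 149, and with array medians subtracted 387 and 117. With all probe sets averaged, missing shut-off held 135 genes. Among genes with several probe sets over the floor, all of them were at least 2-fold apart the same way in 98 missing induction genes and in 39 of 112 missing shut-off genes.

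Promoters are shown for a few genes that were switched on or off in wild type. Printed are the 250 bases before the start site from RefSeq (GRCm38.p6), 5′ to 3′ on the gene's own strand. Whether the sequences bear on the expression was not tested. Capitals mark matches, on either strand, to any of 8 short motifs: TGACGTCA (CRE), TGANTCA (AP-1), TTGCNNAA (C/EBP), GCGNGGGCG (EGR), AAGGTCA (NR5A), TGTTTAC (forkhead), TGTGGTT (RUNX) and GGGCGG (the SP or GC box). Ptgs2 (chr1:150099781-150100030, plus strand) held a C/EBP match that begins 69 bases before the start site, a RUNX match at 198 and a GC box at 170. Pgr (chr9:8899583-8899832, plus strand) held a GC box 47 bases before it. Of the genes that stayed on in knockout, Inhbb (chr1:119422249-119422498, minus strand) held a GC box at 122 and Fshr (chr17:89200676-89200925, minus strand) held 0 matches. Star and Cyp19a1 are named only.
Ptgs2: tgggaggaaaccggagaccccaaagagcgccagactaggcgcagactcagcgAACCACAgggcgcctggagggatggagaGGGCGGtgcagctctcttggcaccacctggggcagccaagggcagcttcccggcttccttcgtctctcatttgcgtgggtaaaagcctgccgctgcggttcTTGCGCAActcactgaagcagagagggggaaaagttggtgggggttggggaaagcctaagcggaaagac
Pgr: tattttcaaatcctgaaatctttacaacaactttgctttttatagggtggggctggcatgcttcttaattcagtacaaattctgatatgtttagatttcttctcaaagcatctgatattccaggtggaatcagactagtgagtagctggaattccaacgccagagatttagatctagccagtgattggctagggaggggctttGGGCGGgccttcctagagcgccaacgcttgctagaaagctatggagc
Inhbb: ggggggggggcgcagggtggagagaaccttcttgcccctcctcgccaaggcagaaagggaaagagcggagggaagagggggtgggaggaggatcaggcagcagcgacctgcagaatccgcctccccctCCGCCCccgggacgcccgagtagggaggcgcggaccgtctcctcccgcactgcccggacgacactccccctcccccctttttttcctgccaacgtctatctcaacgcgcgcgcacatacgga
Fshr: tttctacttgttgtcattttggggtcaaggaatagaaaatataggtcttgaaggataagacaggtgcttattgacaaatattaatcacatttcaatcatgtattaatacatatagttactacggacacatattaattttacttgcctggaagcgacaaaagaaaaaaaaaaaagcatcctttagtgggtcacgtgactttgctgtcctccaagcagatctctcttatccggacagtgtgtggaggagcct

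Across the classes, motif shares in the 300 bases around the start site are a description, and a match is not a site. A C/EBP match was present in 34 of 236 missing induction promoters (14.4%) and 19 of 217 missing shut-off promoters (8.76%), against 7.84% of the promoters of all measured genes and 10.8% of all promoters in the table. AP-1 matches were in 8.90% of missing induction and 3.69% of missing shut-off promoters, against 4.79% and 7.93%. The full CRE was in 3.81% and 0.922%, against 3.37% and 1.88%, and the GC box in 64.8% and 66.4%, against 65.7% and 35.9%. The EGR motif was in 12.3% and 5.99%, against 11.02% and 5.55%. NR5A matches were in 0.847% and 3.69%, against 3.12% and 4.66%. Forkhead matches were in 4.66% and 4.61%, against 2.37% and 3.55%, and RUNX matches in 3.81% and 6.45%, against 3.36% and 5.37%. Among named lower genes, the promoters of G530011O06Rik, Ptgs2, Ptx3, Fzd1, Serpinb2, Il6 and Vegfc held the C/EBP letters, and those of Nmu, Nts, F3, Tnfaip6, Serpinb2 and Il6 the AP-1 letters. The C/EBP letters were also in the promoter of the higher gene Mbnl3. The EGR letters were in those of the lower genes Nmu, Zfp804a, Npr1, Cxcr4, Vegfc and Hhip and the higher genes Fzd4 and Nr4a1.

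Genes that pass the ovulatory signal on to the cumulus were among the farthest below wild type. EGF-like ligands carry the signal between follicle cells, and 3 of the 5 measured were called lower at 4 h with 0 called higher (median -1.07, log2, against 0.19 over all measured genes). List members under 64 on both 4 h arrays are left out of these medians, while members dim only in knockout are kept. Without the floor the median over 6 ligands was -0.56, against 0.06 over all 18194 genes. Btc (betacellulin) stood at 49, 256 and 400 in knockout at 0 h, 2.5 h and 4 h, against 46, 5768 and 13217 in wild type. It began level and was 33.04-fold lower in knockout at 4 h. Epgn (epigen) had 180 in knockout and 2697 in wild type at 4 h (14.98-fold lower). Ereg (epiregulin) was the ligand nearest to wild type among the called ones, with 29, 7644 and 7360 in knockout against 35, 15945 and 15438 in wild type (2.10-fold lower). Tgfa stood at 368 and 348 at 4 h. Errfi1, a feedback inhibitor of the EGF receptor, had 1144 in knockout and 11607 in wild type (10.1-fold lower), while Egfr itself was at 457 and 272.

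The matrix of the expanding cumulus showed the same side. All of 8 measured genes lay below wild type, 5 of them at least 2-fold (median -2.35, or -1.89 with values under 64 set to 64). Without the floor the median over 9 genes was -1.59. Ptx3 (pentraxin 3, which stabilizes the matrix) had 42, 116 and 88 in knockout and 62, 1007 and 2680 in wild type, a 30.5-fold difference at 4 h. Has2, which makes hyaluronan, never reached the floor in knockout, at 21, 27 and 30 against 29, 324 and 509, and was at least 7.95-fold lower. Tnfaip6, which links proteins to hyaluronan, had 281 against 2897 at 4 h (10.3-fold lower) and Cemip, a hyaluronan-degrading protein, 34 against 293. Cemip had already been at 17 against 105 before hCG. In the prostaglandin pathway 1 of 9 genes was lower and 2 were higher (median 0.37). The lower one was Ptgs2, the inducible prostaglandin synthase, with 15, 163 and 122 in knockout against 19, 8192 and 11013 in wild type, 90.3-fold lower at 4 h, with differences of -6.64 to -6.50 (log2) over 2 probe sets. The higher ones were receptors. Ptger4, an E2 receptor, stood at 2998 against 1086 and Ptgfr, the F2-alpha receptor, at 2394 against 675, though its 4 probe sets gave differences of 0.42 to 2.09 (log2). At 0 h Ptgfr had been the other way, at 40 against 276.

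Ovulation regulators had 10 of 17 called lower and 2 called higher (median -2.53, or -1.67 with values under 64 set to 64). The gene farthest from wild type of all 11467 was Sult1e1, the estrogen sulfotransferase, at 20, 23 and 78 in knockout against 20, 10513 and 18464 in wild type, 237-fold lower at 4 h. Pgr, the progesterone receptor needed for follicle rupture, had 25, 693 and 1322 in knockout against 25, 4476 and 7661 in wild type. It was up after hCG in each genotype and lower in knockout by a log2 difference of -2.53, with -3.97 to -1.57 over 3 probe sets. Runx1, a transcription factor of the periovulatory follicle, stayed at 223, 168 and 225 in knockout, against 256, 2082 and 2933 (13.04-fold lower, -3.70 to -1.18 over 6 probe sets). Prkg2, a cGMP-dependent kinase, stood at 41, 41 and 58 in knockout, against 41, 110 and 2449 in wild type, where it came late (at least 38.3-fold lower). Snap25, a protein of vesicle fusion, did not reach the floor in knockout, at 12, 12 and 16, against the same late form in wild type at 14, 92 and 862. Edn2 (endothelin 2) had 22 against 204 at 4 h. The higher genes of the list were Nrip1, a nuclear receptor corepressor, and the zinc finger gene Zbtb16, for which another probe set gave -0.80 (log2). The C/EBP factors themselves were under 2-fold from wild type at 4 h, with Cebpb at 1995 in knockout and 1637 in wild type and Cebpa at 645 and 931. At 2.5 h Cebpa had been 2.27-fold lower in knockout, at 573 against 1301, and Cebpb had been at 1547 against 1373.

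**Figure D2:**
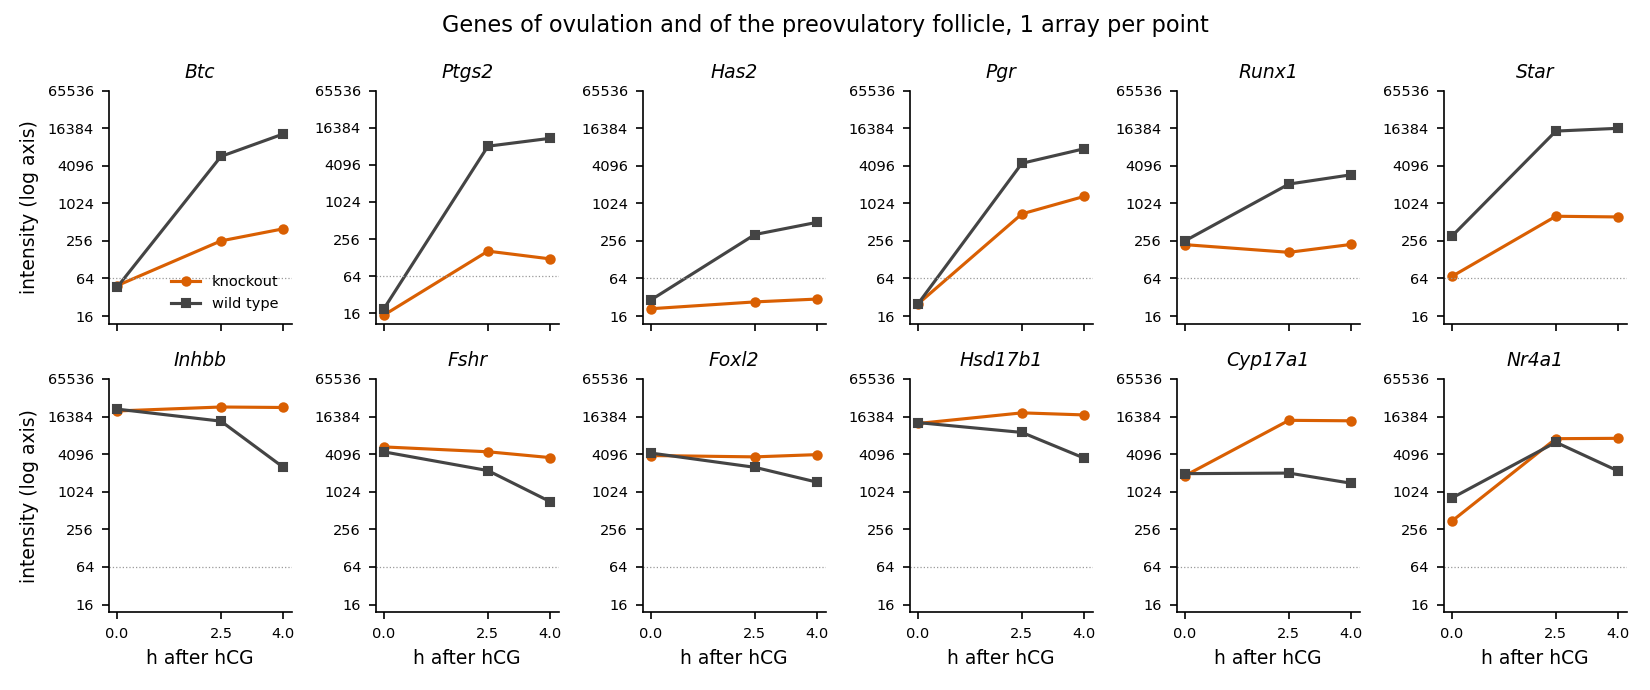
Intensity (log axis) against hours after hCG for 12 named genes, knockout in orange circles and wild type in dark squares, 1 array per point; the dotted line marks the floor of 64. In the upper row wild type climbs far above knockout by 2.5 h, and in the lower row wild type drops below knockout by 4 h for Inhbb, Fshr, Foxl2 and Hsd17b1, while Cyp17a1 climbs in knockout and Nr4a1 stays high there.

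Several neuropeptides and clotting factors were far lower in knockout. Of 8 measured neuropeptide and exocytosis genes 5 were called lower and 0 higher, while 2 lay above wild type (median -4.06, or -3.38 at the floor). Some of these, such as Nmu, were measured only through their wild type value. Without the floor the median over all 10 genes was -2.01. Nts (neurotensin) had 27, 66 and 160 in knockout against 26, 6710 and 10934 in wild type, and was 68.3-fold lower at 4 h. Nmu (neuromedin U) stayed under 64 in knockout at 38, 47 and 41, against 39, 2179 and 3455, so it was at least 53.98-fold lower. Tac1, the substance P precursor, had 610, 508 and 534 in knockout against 653, 3756 and 9712 (18.2-fold lower), and Adcyap1 (PACAP) 34 against 518 at 4 h. In the coagulation and plasminogen list, all of 9 genes lay below wild type and 6 were called (median -1.89, or -1.35 at the floor). F3 (tissue factor) had 178 in knockout against 7185 (40.4-fold lower). Serpinb2, an inhibitor of plasminogen activators, was at least 6.19-fold lower at 16 against 396. Plau, the urokinase-type activator, had 63 against 891, and 32 against 98 at 0 h.

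Signalling genes next to ERK divided by kind. Of 11 measured ERK feedback genes, 7 were lower and 0 higher (median -1.60, or -1.04 at the floor). Without the floor the median over 14 genes was -0.95. Dusp6, a phosphatase of ERK itself, had 26, 186 and 99 in knockout against 94, 404 and 872 (8.81-fold lower). The phosphatase Dusp4 stayed at 44, 38 and 38 against 69, 397 and 891, at least 13.9-fold lower. Spry2, an inhibitor of receptor signalling, had 291 against 883, Etv5, an ETS factor, 17 against 125, and Phlda1 73 against 486. Of 23 immediate early genes 9 were lower and 3 higher (median -0.33). The gene at that median was Egr3, at 116 against 146, for which another probe set gave -7.38 (log2). With the probe sets of each gene averaged, 10 of 22 were lower and 3 higher (median -0.86). Egr1, a zinc finger factor of the first response, stayed near its 0 h level in knockout, at 273, 259 and 234 against 2152, 9767 and 5596, and was 23.9-fold lower at 4 h. Egr2 had 45 against 609, Ier5 125 against 1040 (-3.06 to -0.94 over 3 probe sets) and Ier3, a survival gene, 964 against 7782.

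The 3 higher ones were Jun, Klf2 and Nr4a1. Jun, an AP-1 subunit, had 416, 2363 and 3150 in knockout against 400, 899 and 517 in wild type, 6.09-fold higher at 4 h. Nr4a1, an orphan nuclear receptor, was equally high in both genotypes at 2.5 h (7241 and 6344) and stayed at 7336 in knockout at 4 h, against 2192 in wild type, a 3.35-fold difference. For this gene the difference was thus in the later decline of wild type. Klf2, a Krüppel-like factor, had 1808 against 427. The cAMP and CREB list went both ways, with 3 of 15 lower and 4 higher (median -0.14). Crem, the classic cAMP-induced repressor, was level at 2.5 h (3940 and 3886) and stood at 1088 against 2316 at 4 h. Gem, a small GTPase, had 485, 216 and 171 in knockout against 498, 1218 and 1014, so it was down in one genotype and up in the other. Pde4b, a cAMP phosphodiesterase, was 5.10-fold lower in knockout, while Rasd1, a Ras-like GTPase, stood at 784, 3277 and 4033 against 873, 571 and 376 (10.7-fold higher). The other higher members were the phosphodiesterase Pde4d and the clock gene Per2 (243 against 66).

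Part of the genes of the preovulatory granulosa cell stood higher in knockout. Of 23 measured, 22 lay above wild type at 4 h, 9 of them at least 2-fold, and 0 were 2-fold lower (median 0.88, against 0.19 over all measured genes, and 0.66 with cyclic loess). Of all 11467 measured genes, 7675 lay above wild type. Fshr, the FSH receptor, had 5345, 4468 and 3603 in knockout against 4454, 2233 and 708 in wild type (5.09-fold higher). Knockout was down somewhat by 4 h and wild type much more. Hsd17b1, which forms estradiol, stood at 12681, 18764 and 17381 in knockout against 13111, 9121 and 3530 (4.92-fold higher). Foxl2, the transcription factor of granulosa identity, was flat in knockout at 3890, 3703 and 4025, against 4262, 2518 and 1454. Gata4, another factor of these cells, had 1302 against 361 and Fzd4, a Wnt receptor, 890 against 233. Closer to the threshold were Bmpr1b, a BMP receptor, at 4446 against 1945, Foxo1, at 6821 against 3351, and Ccnd2, a D cyclin of granulosa proliferation, at 5770 against 2782. Each of these 3 was under 2-fold with cyclic loess. Foxo1 had been at 13291 in knockout and 10209 in wild type at 0 h, so it was lower after hCG in both genotypes. Other members were lower after hCG in both genotypes alike, such as Nr0b1, a nuclear receptor, with 521 at 0 h and 129 at 4 h in knockout, against 485 and 120 in wild type. Esr2, the estrogen receptor beta, had 795 and 359 in knockout, against 690 and 280 in wild type. Amh, from smaller follicles, was at 120 and 115.

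Inhibin and activin subunits differed among themselves. Inhbb (the beta-B subunit) had 20115, 23283 and 22865 in knockout against 21559, 13813 and 2518 in wild type, 9.08-fold higher at 4 h and 1.82 to 3.18 (log2) over 2 probe sets. Inhba (beta-A) was at 34790 against 23868 and Inha (alpha) at 33136 against 27881, under 2-fold each. Over the list 2 of 10 were higher and 0 lower (median 0.32), the other being Tgfbr3, an inhibin co-receptor, at 2873 against 1402. With cyclic loess 1 of the 10 was higher. Among genes that hold the oocyte in meiotic arrest, Nppc, the peptide whose receptor makes cGMP, had 242, 210 and 217 in knockout against 539, 352 and 97. It began lower in knockout and ended 2.24-fold higher, since the wild type level was down by 4 h. Its receptor Npr2 stood at 3230 against 1965. The list had 1 of 8 higher and 2 lower (median 0.14, and -0.05 with cyclic loess), the lower ones being the natriuretic receptors Npr1 and Npr3.

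Knockout gain genes stood above their own 0 h level in knockout. Cyp17a1, the androgen-forming enzyme of theca cells, had 1845, 14251 and 13997 in knockout against 1994, 2037 and 1399 in wild type (10.01-fold higher). Other theca markers did not follow it: of 5 measured, Ptch1 was at 1540 against 1868, Nr2f2 at 366 against 393 and Enpep at 620 against 654, and Hhip was lower at 117 against 467. Zfp949, a zinc finger gene, had 120, 371 and 2100 in knockout against 114, 63 and 58, at least 32.8-fold higher. Tnfsf11 (RANKL, a TNF family cytokine) had 735, 1874 and 2034 against 78, 219 and 59 and was apart at every time, with at least 31.8-fold at 4 h; its 2 probe sets gave differences of 1.99 to 5.11 (log2). Drd4, a dopamine receptor, stood at 3595 against 404, Svs5 at 757 against 50, Kif26b, a kinesin family gene, at 1143 against 154, Mbnl3 at 2334 against 391 and Fads2, a fatty acid desaturase, at 2473 against 458. Kif26b was up in wild type too, at 37, 114 and 154, against 36, 129 and 1143 in knockout. In the group of 87, the median gene was 1.72 (log2) above its own 0 h array in knockout and -0.08 in wild type.

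Steroid and luteal genes gave no common direction. Star, which carries cholesterol into mitochondria, had 69, 635 and 619 in knockout against 304, 14678 and 16259 in wild type, 26.3-fold lower at 4 h. Cyp11a1, the enzyme at the next step, was nearly level at 4 h, with 2598, 9524 and 12909 in knockout against 6878, 11901 and 13351. Nr5a2, a nuclear receptor of granulosa and luteal cells, was higher in knockout (16328 against 5450, log2 difference 1.58). Akr1c18, which breaks down progesterone, was lower at 83 against 256. Over 12 steroid genes 3 were higher and 3 lower (median 0.38), and over 13 luteal genes 2 and 4 (median -0.42), with Timp1, a protease inhibitor, at 401 against 5095 and Sfrp4, a secreted Wnt modulator, at 3532 against 21796. Timp1 had been at 229 against 479 at 0 h. Sfrp4 had been at 251 against 2784, so its gap was narrower at 4 h (6.17-fold) than at 0 h (11.1-fold). The cholesterol list had 1 higher and 2 lower of 18 (median 0.09, and -0.11 with cyclic loess). Those called were Fdft1, Cyp51 and Sc5d, each within 2.75-fold, and another probe set of Sc5d gave 0.37 (log2) for a difference of -1.04.

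Of the remaining lists, those of vessels, cytokines and cell contact leaned to the lower side. Angiogenic factors had 4 of 11 lower and 0 higher (median -0.70), with Vegfc, a lymphatic growth factor, at 74 against 395 and Efnb2 at 189 against 1910, though a probe set of Efnb2 gave only -0.09 (log2). Of 10 cytokine and innate immune genes 4 were lower and 1, Tnfsf11, higher (median -0.77). Cxcr4, a chemokine receptor, stood at 201 against 1883 and Il6 at 14 against 82. Without the floor the medians were -0.60 over 13 angiogenic factors and -0.38 over 18 cytokine and innate immune genes. In the Wnt and Notch list 5 of 16 were lower and 1 higher (median -0.46), led by Hey1, a Notch target, at 88 against 809 and Fzd1 at 385 against 2113. Glycolysis and hypoxia had 3 of 16 lower and 0 higher (median -0.05), with the glucose transporter Slc2a1 at 402 against 2586 and the hexokinase Hk2 at 527 against 1642. Matrix proteases and inhibitors had 1 of 12 each way, Timp1 lower and Timp2 higher (median 0.14). The 4 probe sets of Timp2 gave 0.24 to 1.04 (log2), and it was under 2-fold with cyclic loess.

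Cell cycle lists had few calls. Of 28 mitosis genes 26 lay above wild type but 1 by 2-fold, Ccnb2 at 1494 against 686 (median 0.50, and 0.30 with cyclic loess). Among all 11467 measured genes 7675 lay above wild type. With cyclic loess 0 mitosis genes were called. DNA replication had 0 of 20 called (median 0.23), D cyclins and inhibitors 1 of 8, Ccnd2 (median 0.16), and apoptosis regulators 1 of 8, Bcl2 at 79 against 161 (median 0.24). Heat shock and unfolded protein genes had 2 of 14 higher (median 0.12), Hspa1b at 1827 against 567 and Hspa1a at 195 against 91. Clock genes had 1 of 10 each way, Per2 higher and Bhlhe40 lower (median 0.11), and the EGF receptor family 1 of 4 lower (median 0.61). Reference genes had 0 of 10 called and a median of 0.15, near the 0.19 of all measured genes, and at -0.08 with cyclic loess. Some medians in this paragraph and the foregoing one went from above 0 to below 0 with cyclic loess. These were matrix proteases, heat shock, clock and reference genes and apoptosis regulators. The median of D cyclins did so with array medians subtracted (-0.04).

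**Figure D3:**
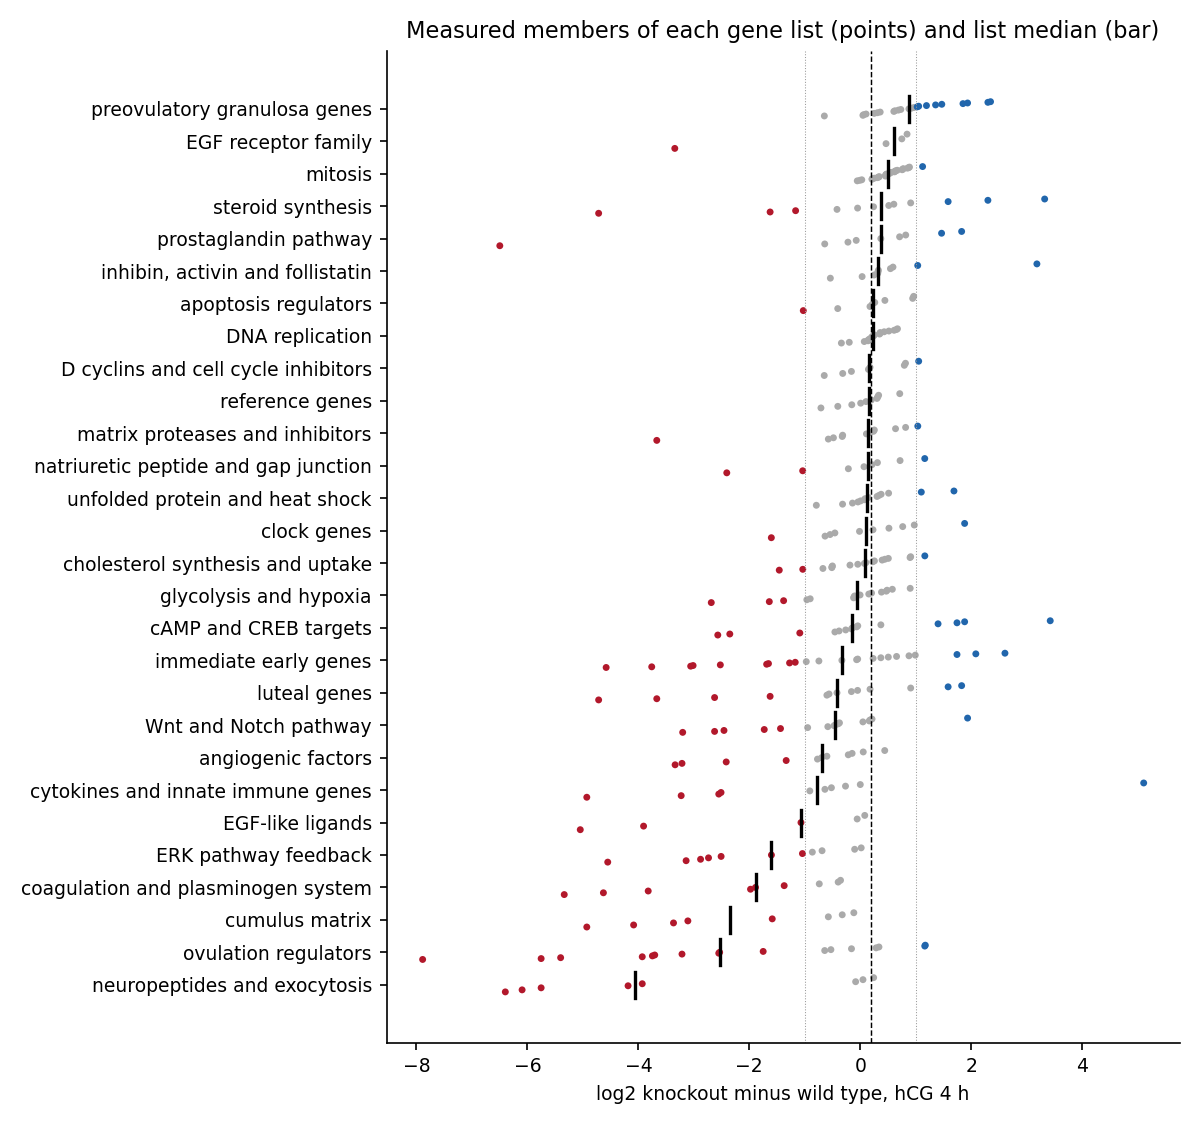
Log2 difference of knockout minus wild type at 4 h (x axis) for each measured member (points; red at least 2-fold lower, blue at least 2-fold higher, grey neither) of 28 gene lists, with the list median as a bar; the dashed line is the median of all measured genes, 0.19, and the dotted lines are 2-fold. Neuropeptide, ovulation, cumulus, coagulation and ERK feedback lists reach far to the left, and the preovulatory granulosa list sits at the top with 9 members past 2-fold.

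Some of the largest differences were in genes outside these lists. On the lower side G530011O06Rik had 26, 23 and 25 in knockout against 37, 561 and 3077 (at least 48.1-fold lower) and Gsta2, a glutathione transferase, 118, 135 and 96 against 127, 1963 and 3908 (40.7-fold lower). Rnd3, a small GTPase of the cytoskeleton, had 58 against 2146, Msc, a basic helix-loop-helix factor, 19 against 892, C730049O14Rik 125 against 3607, Rnf125, a ubiquitin ligase, 89 against 2444 and Zfp804a 23 against 600. Wild type stood higher at 4 h than at 2.5 h in each of these 7, and knockout stayed within 2-fold of its 0 h level. On the higher side Coasy, of coenzyme A synthesis, had 1334, 1743 and 3520 in knockout against 1281, 928 and 326 (10.8-fold higher). Kcne2, a potassium channel subunit, had 224, 401 and 287 against 187, 179 and 21 (at least 4.48-fold higher). Smim10l2a stood at 337 against 29, Cacna1d, a calcium channel, at 343 against 35, Tulp2 at 216 against 24, Cbfa2t3, a corepressor, at 1023 against 127, Pm20d2 at 438 against 68 and Ccdc68 at 587 against 94.

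The 18 knockout loss genes were below their own 0 h level in knockout, with a median of -1.20 (log2) there and -0.14 in wild type. Bmp2, a growth factor of the TGF-beta family, had 738, 253 and 368 in knockout against 1200, 2320 and 1892 (5.14-fold lower). Tpd52l1 had 257 against 1061 at 4 h, Lrrn1 173 against 569 and Apoa1 251 against 683. Apoa1 had been at 520 against 1209 at 0 h. For Lrrn1 and for Calr3 (20 against 105) a second probe set gave 0.10 and 0.31 (log2), but it was under 64 on both 4 h arrays and so not measured by the rule. Rps4l stood at 94 against 363, Il17ra at 620 against 1475 and Arhgap18 at 263 against 564. Mgst2 (63 against 254) and Ppp1r14a (27 against 75) were under the floor in knockout. On the other side, the knockout gain gene Smpx stood at 107 against 19. At 2.5 h, 6 of the 18 were already 2-fold down in knockout, against 3.41% of all measured genes. The knockout 0 h array enters both this response and the choice of the 18, so part of the excess is built in.

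The arrays at 2.5 h and 0 h share nothing with the 4 h pair and show when the genotypes parted. Across the 11467 genes, which are not independent replicates and share the platform and the normalization, the genotype differences at 4 h and 2.5 h had a Pearson r of 0.773 (Spearman 0.616), and those at 4 h and 0 h an r of 0.242 (0.199). Of the 476 genes lower at 4 h, 270 were also at least 2-fold lower at 2.5 h, which is 56.7% of these and 76.7% of the 352 lower at 2.5 h; 2.91% of all genes measured at 4 h were lower then. Of the 572 higher genes 108 were also higher at 2.5 h, 18.9% of these and 63.9% of the 169 at 2.5 h, with 1.44% as the background. At 0 h 53 of the lower and 15 of the higher genes had been apart the same way, 11.1% and 2.62%, against 0.855% and 0.671% of all measured genes. Counting any size, 461 of 476 lower genes (96.8%) had the same sign at 2.5 h, against 33.6% of all measured genes, and 519 of 572 higher genes (90.7%), against 65.6%.

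**Figure D4:**
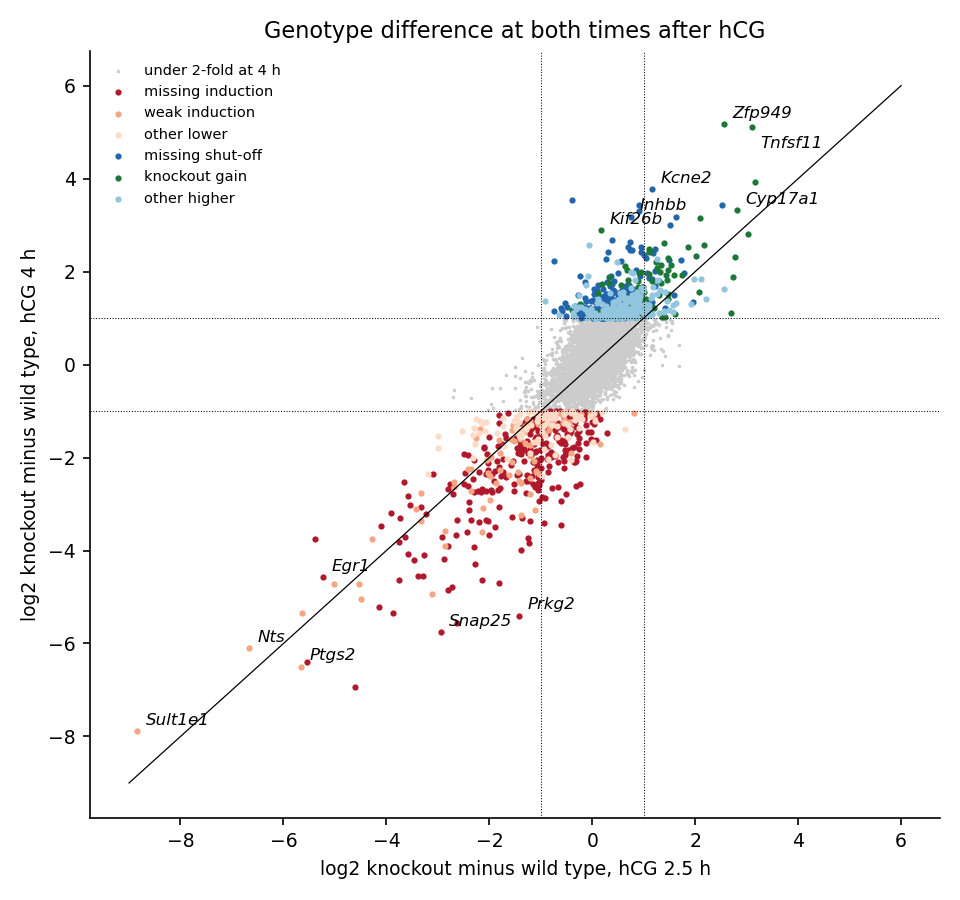
Log2 difference of knockout minus wild type at 2.5 h (x axis) and 4 h (y axis), 1 point per measured gene, coloured by class at 4 h; dotted lines mark 2-fold and the solid line equal differences. Missing induction genes in red extend along the line to the lower left, with Prkg2 and Snap25 below it, while most missing shut-off genes in blue lie within the 2-fold lines at 2.5 h.

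Missing induction genes were apart at 2.5 h in a larger share than missing shut-off genes. Of 302 missing induction genes, 161 (53.3%) were already called lower at 2.5 h, and of 263 missing shut-off genes 25 (9.51%) were called higher. In wild type 141 missing induction genes had reached 2-fold up by 2.5 h (46.7%, against 3.45% of all measured genes), while 20 missing shut-off genes had reached 2-fold down (7.60%, against 0.933%). The median missing induction gene was 0.13 and 0.23 (log2) above 0 h in knockout at 2.5 h and 4 h, against 1.01 and 1.88 in wild type. The median missing shut-off gene stood at -0.25 and -0.15 in knockout, against -0.64 and -1.43 in wild type. These genes were chosen by their wild type 4 h value, so its step after 2.5 h is part of that choice. Knockout gain genes were up in knockout by 2.5 h already, at 1.51, and 69 of 87 had reached 2-fold by then (79.3%, against 3.33%). The 0 h array of a genotype enters both the choice of class and that genotype's 2.5 h response. An excess over all measured genes in the shares changed from 0 h is thus partly built in.

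The measured genes were also sorted by the wild type response at 2.5 h. The sorting uses neither 4 h array, but a gene is measured only if one of these reached 64, so induced genes that stayed dim in knockout entered through wild type at 4 h, and the shares are a description. Of 147 measured genes at least 4-fold up in wild type at 2.5 h, 114 (77.6%) were lower in knockout at 4 h and 6 higher (median -2.28, log2). Of 262 genes 2-fold to 4-fold up, 48.9% were lower and 10 genes higher (median -0.97). Among 10951 genes under 2-fold either way, 2.13% were lower and 4.80% higher. Of 107 genes at least 2-fold down in wild type at 2.5 h, 30 (28.04%) were higher and 1 lower, against backgrounds of 4.99% and 4.15%.

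**Figure D5:**
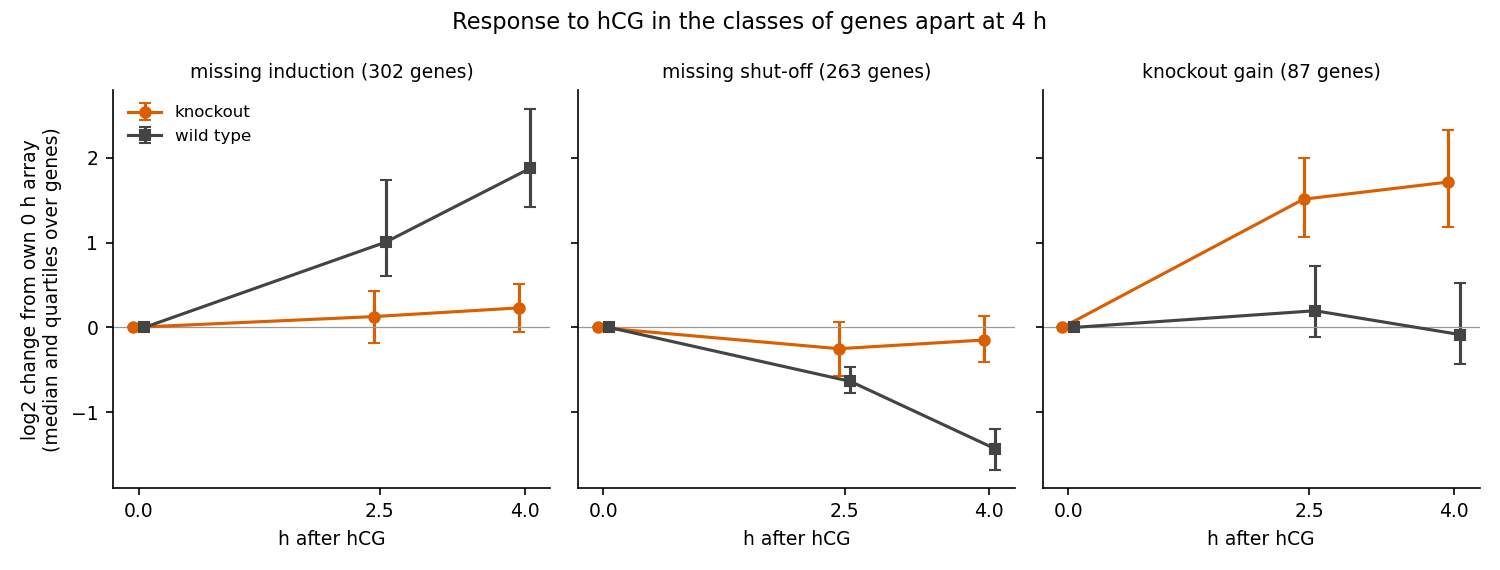
Median log2 change from the genotype's own 0 h array (points) with quartiles over genes (bars, not errors of the mean) at 0 h, 2.5 h and 4 h, knockout in orange circles and wild type in dark squares, for 302 missing induction, 263 missing shut-off and 87 knockout gain genes. At 4 h knockout is at 0.23 and wild type at 1.88 in the first panel, knockout at -0.15 and wild type at -1.43 in the second, and knockout at 1.72 and wild type at -0.08 in the third.

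Markers of the cells in the samples were read beside these results, and in bulk RNA fewer cells of a type and less RNA per cell cannot be told apart. All of 12 granulosa markers measured were present in both genotypes, 6 of them at least 2-fold higher in knockout, and their summed intensity was 127347 to 155020 over the knockout arrays and 78573 to 133908 over the wild type arrays. Oocyte markers summed to 14740 in knockout and 14315 in wild type at 4 h with 0 of 14 called, but to 39331 and 21312 at 0 h, so the sum was lower after hCG in both genotypes, and by more in knockout. Of 8 surface epithelium markers 7 lay above wild type, 3 of them 2-fold (median 0.69), with Krt7 at 335 against 137 (220 against 75 at 0 h), Upk1b at 436 against 195 and Msln at 348 against 167, and their sums were 3119 to 4108 and 2666 to 3109 over the times. Above wild type lay 7675 of all 11467 measured genes, and with cyclic loess 1 surface epithelium marker was 2-fold higher. All of 5 measured endothelial markers were lower, 0 of them 2-fold (median -0.35), with Kdr at 282 against 457 and Pecam1 and Vwf under 64, and sums of 901 to 993 and 988 to 1638. Macrophage and leukocyte markers had 0 of 9 called (median 0.46; Ptprc under 64), with sums of 1554 to 2080 and 1483 to 1541. Stromal fibroblast (0 of 7, median 0.30), smooth muscle (0 of 5, 0.12, and -0.10 with cyclic loess) and lymphocyte markers (0 of 3, -0.35) gave no call, and 0 of 5 neutrophil markers reached the floor. Of the red cell markers 1 was measured, Alas2, at 227 against 536. The part of these cells in the gene differences was not tested.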

How the data were processed

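Granulosa cell RNA, 5 ug per sample, was purified on columns, turned into biotin-labelled cRNA and hybridised to Affymetrix arrays, per the labels' protocols. The authors deposited 1 intensity per probe set, made by RMA in the affy package per the submitters' processing notes. These intensities were whole numbers on a linear scale, from 9 to 59425 over the 6 arrays, and log2 was taken. RMA equalizes the distribution of values over arrays, which hides any shift in RNA content per cell, and dim whole numbers move in coarse steps.

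Of 45101 probe sets, 34958 named 1 gene in the platform annotation and 932 several. Symbols were checked by gene ID against RefSeq (GRCm38.p6). Each gene was represented by its brightest probe set, by mean log2 of the 6 arrays. Computation used Python 3.11.15 with pandas 2.3.3, and limma 3.58.1 in R 4.3.3 for cyclic loess. The class rule was run on simulated data to check the code, with shifts well past the threshold in bright genes. Recovery there was built in and says nothing of the classes on these arrays. The floor was an intensity of 64 and the threshold 2-fold. With 1 array a group there was no test.

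Genes named were the 15 largest differences on each side whose probe sets all differed 2-fold, and the 10 largest of 4 classes. Up to 4 genes per list and a list of core genes were added. Where a count of 5 or fewer is spelled out, further genes were named after their values were seen. So were some theca, endothelial and leukocyte markers below the threshold, and Nr0b1, Esr2 and Egr3. Areg, Lhcgr and Cyp19a1 were core genes not analysed here. The 28 gene lists, 11 marker lists and motifs were chosen with earlier results of these data known. Alternatives covered scaling, floor, pseudocount, choice of probe set, fold threshold and 0 h array. The number of arrays limits the precision.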

Additional observations from a re-analysis of the deposited data

Results flagged for a closer look

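Of the genes named by rule, 6 responded to hCG at least 2-fold in opposite directions in the genotypes, 4 h against 0 h, with 1 array each, and the difference was not tested. The response of Coasy was 1.40 (log2) in knockout, against -1.97 in wild type. For Rasd1 it was 2.36 in knockout, against -1.22 in wild type. For Tulp2 it was 1.11 in knockout, against -3.24 in wild type, with an intensity of 24 in wild type at 4 h, under the floor. Cbfa2t3 gave 1.33 in knockout, against -1.87 in wild type, and over its 4 probe sets the genotype difference at 4 h was 1.37 to 3.01. Gem gave -1.50 in knockout, against 1.03 in wild type. Hspa1a gave 1.02 in knockout, against -1.29 in wild type, where its 0 h level had been higher (96 in knockout, 222 in wild type).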

How the results depend on the processing

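The 572 higher genes became 360 with cyclic loess, 310 with array medians subtracted, 333 with the mean of all probe sets, 185 with the second brightest probe set and 118 at a 3-fold threshold. All 360 and all 310 were among the 572. The 476 lower genes became 270 with the second brightest probe set and 264 at 3-fold, and stayed within 1.5 times under the other alternatives (404 to 605). Missing induction had 178 genes with the second brightest probe set and 190 at 3-fold, and 260 to 387 otherwise. Missing shut-off was less stable: 149 with cyclic loess, 117 with array medians subtracted, 164 with log2(intensity + 32), 135 with the mean of all probe sets, 81 with the second brightest probe set and 37 at 3-fold. Fewer genes (4915) could be measured by a second probe set, and a stricter fold counts fewer by construction; otherwise the cause was not tested. Counting a gene only where all its probe sets agreed, an alternative chosen after seeing the data, gave 411 higher, 413 lower, 272 missing induction and 190 missing shut-off. The Pearson r of the 4 h and 2.5 h differences was 0.731 to 0.794 over the alternatives run for it. Of 117 named genes past 2-fold, 83 stayed so under every alternative run for them, and 3 changed sign with the second brightest probe set, Calr3 at 0.31, Lrrn1 at 0.10 and Sc5d at 0.37 (log2). For Calr3 and Lrrn1 that probe set was under 64 on both 4 h arrays. List medians changed sign with the second brightest probe set for the EGF receptor family (-1.70), steroid synthesis (-0.59), inhibin and activin (-0.05), cholesterol (-0.21), apoptosis (-0.16), matrix proteases (-0.12) and oocyte markers (0.44). Higher calls in several lists were lost with cyclic loess. They went from 9 to 6 for preovulatory granulosa genes and from 3 to 1 for surface epithelium markers. From 2 to 1 went inhibin and activin, ovulation regulators and heat shock, and from 1 to 0 mitosis, cholesterol, matrix proteases and D cyclins. No paired analysis was possible because each group has 1 array and the labels give no replicate numbers. No replicate could be left out for the same reason. Intensities under 64 limit what can be said of dim genes, and their folds are minimum values.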

Other observations

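Of 10143 probe sets that name no single gene, 2866 were over the floor in the 4 h pair. In knockout 125 of these 2866 were 2-fold higher and 122 were 2-fold lower. Of the 11467 measured genes 572 (4.99%) were higher and 476 (4.15%) lower.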
